A study of Gallus gallus with 6 samples.

Results

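Neuropilins and plexins are the cell surface receptors through which semaphorins steer growing axons and migrating neural crest cells. They were described here as the 9 genes that the deposited gene table names NRP1, NRP2 or as a plexin of family A, B, C or D, out of 17108 gene rows in all. All 9 were among the 10529 rows tested by the authors. They are NRP1, NRP2, PLXNA1, PLXNA2, PLXNA4, PLXNB1, PLXNB2, PLXNC1 and PLXND1.

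The tissue came from wild-type chick embryos at embryonic day 3, Hamburger-Hamilton stage 18. Ventral somite cells form the sclerotome, the source of the vertebrae, and its anterior and posterior portions were cut apart, pooled by type and sequenced as poly(A)-selected RNA. Each type gave 3 libraries, and each library was made from 100 half-sclerotomes taken between the 11th and the 23rd most recent somite. The labels do not say whether different libraries came from different embryos, so the spread behind the authors' p-values may be partly technical. Levels are in FPKM, a fragment number corrected for transcript length and library size. The table holds 1 level per group and the authors' p and q (p adjusted over all tested rows). It gives no value per library. All levels below are these values of the authors. A level therefore has no replicate error here, and q is the only measure of error. A gene was called when q per the authors' deposited table was under 0.05.

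Neuropilins have short cytoplasmic tails and act mainly as binding partners, whereas plexins carry the cytoplasmic domain that passes the signal on. Secreted class 3 semaphorins mostly bind a neuropilin in complex with a plexin of family A. NRP1 is the classical receptor of SEMA3A and NRP2 that of SEMA3F. Membrane semaphorins of the other classes bind plexins directly. In mouse, Sema3f in the posterior sclerotome and Nrp2 on trunk neural crest cells keep the crest stream within the anterior sclerotome. Both neuropilins also bind vascular endothelial growth factors, and both are known from endothelial cells.

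The called neuropilins and the called plexins lay in opposite directions. Both neuropilins were called higher in anterior tissue. Among the 7 plexins, 3 were called higher in posterior tissue, 0 in anterior, and 4 were not called. In all, 5 of 9 members were called, beside 7.07% of all tested rows (3.57% higher in posterior and 3.5% higher in anterior). The members were chosen with earlier results of these data known, so this contrast is a description only. The median log2 ratio of posterior over anterior was 0.24 over the 9 members and 0.0046 over all tested rows. The member median is the ratio of PLXNB1 alone, which was not called. It describes neither the neuropilins nor the called plexins. All 5 called members had p = 5e-05, the lowest value per the authors' deposited table, which 380 genes share, so they cannot be ranked by p. The same 5 were called at q under 0.01, which 4.71% of tested rows passed, as follows from their shared lowest p. At q under 0.1 (9.12% of tested rows) PLXNC1 made 6, and at unadjusted p under 0.05 (16.1%) PLXND1 made 7. With a difference of at least 2-fold required beside q under 0.05, all but PLXNB2 of the 5 were left, against 2.93% of tested rows (1.25% in posterior and 1.68% in anterior).

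**Figure D1:**
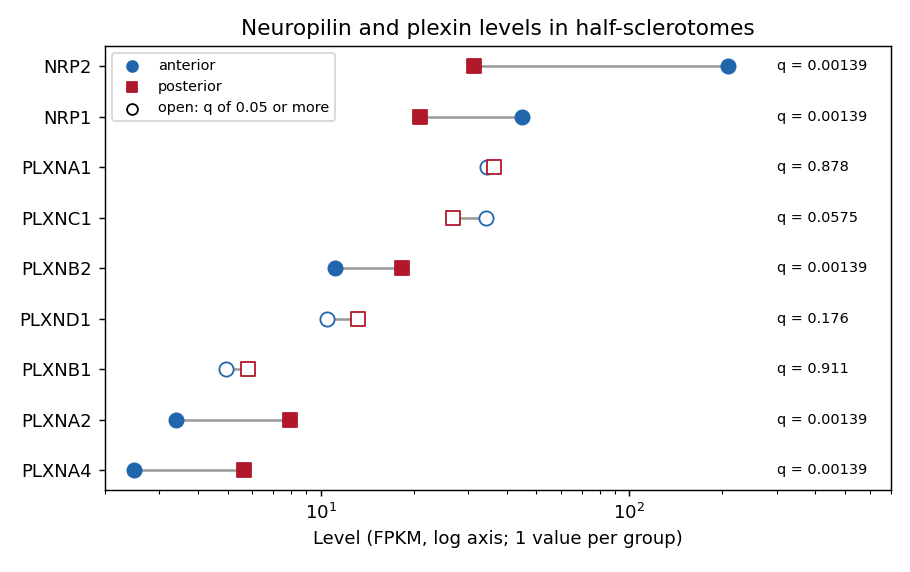
Level of each neuropilin and plexin gene in anterior (blue circles) and posterior (red squares) tissue, in FPKM on a log axis, with 1 value per group and the authors' q at the right. Filled symbols mark the 5 genes with q under 0.05; NRP2 spans the widest gap, from 208 to 31.4 FPKM.

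NRP2 was at 208 FPKM in anterior tissue and 31.4 FPKM in posterior tissue per the authors' deposited table. The anterior level was thus 6.63-fold the posterior one, a log2 ratio of -2.73 (q = 0.00139 per the authors' deposited table). It was the highest of the 9 genes in anterior tissue and the second in posterior tissue. Among the 10529 tested rows, NRP2 ranked 472 by anterior FPKM and 3430 by posterior FPKM. By size of the ratio, NRP2 stood 26th among the 368 genes called higher in anterior. It lies on chromosome 7 from 12175545 to 12233520 (galGal4), and no other row overlaps its locus.

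NRP1 was at 44.8 FPKM in anterior tissue and 21.0 FPKM in posterior tissue, a 2.14-fold difference and a log2 ratio of -1.10 (q = 0.00139 per the authors' deposited table). It moved in the same direction as NRP2 by a smaller ratio, and the difference between both ratios was not tested. NRP1 was 159th by ratio among the genes called higher in anterior. Its locus is on chromosome 2 from 13816140 to 13922505, again with no overlapping row.

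The neuropilin pool differed in amount and in make-up. Summed over both genes, it was 253 FPKM in anterior tissue and 52.4 FPKM in posterior tissue, a 4.83-fold difference. NRP2 made up 82.3% of the anterior sum and 60.0% of the posterior sum. The level of NRP2 was 4.64 times that of NRP1 in anterior and 1.50 times in posterior tissue. These sums and shares are descriptions of 1 value per group, with no error.

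**Figure D2:**
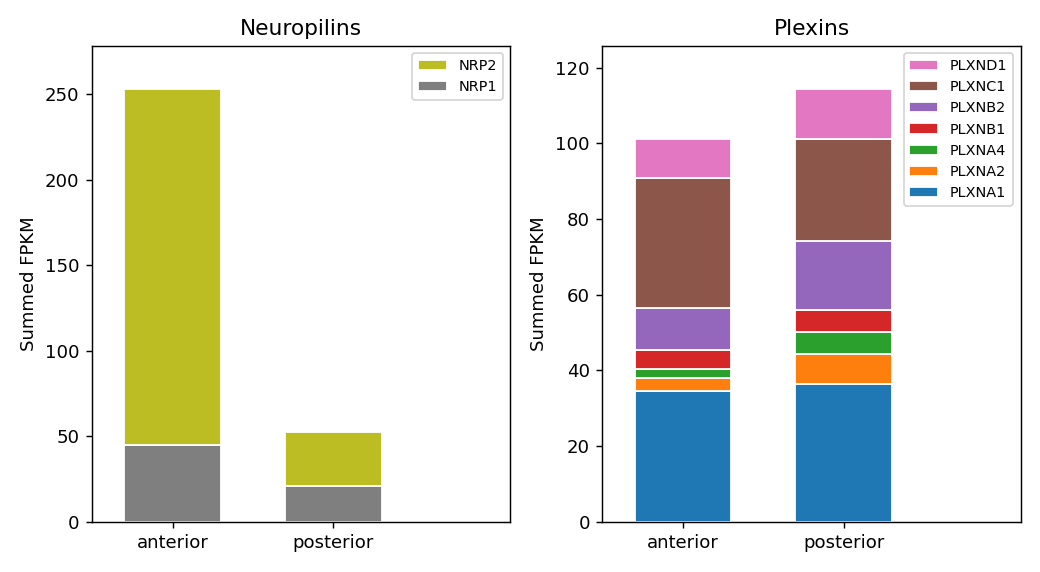
Summed FPKM of the 2 neuropilins (left) and the 7 plexins (right) in anterior and posterior tissue, stacked by gene, with separate linear axes that start at 0. The neuropilin bars stand at 253 and 52.4 FPKM, the plexin bars at 101 and 114 FPKM.

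Plexins of family A are the usual signalling partners of neuropilins and also bind class 6 semaphorins directly. PLXNA2 was at 3.40 FPKM in anterior tissue and 7.97 FPKM in posterior tissue (2.34-fold higher in posterior, log2 ratio 1.23, q = 0.00139 per the authors' deposited table). PLXNA4 was at 2.49 and 5.65 FPKM (2.27-fold, log2 ratio 1.18, q = 0.00139 per the authors' deposited table). PLXNA2 is known in mouse as a receptor of SEMA6A, and PLXNA4 takes part in responses to both SEMA3A and class 6 semaphorins. Both were among the least abundant members: in anterior tissue, 12.2% of tested rows lay below PLXNA2 and 8.07% below PLXNA4.

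PLXNA1, a partner of NRP1 in SEMA3A receptors, was the most abundant plexin and differed least. It was at 34.5 FPKM in anterior tissue and 36.4 FPKM in posterior tissue, a log2 ratio of 0.08 (p = 0.530, q = 0.878 per the authors' deposited table). The family A sum covers only PLXNA1, PLXNA2 and PLXNA4, as no row was named PLXNA3. PLXNA1 made up 85.4% of that sum in anterior and 72.8% in posterior tissue. The family A sum, 40.4 and 50.0 FPKM, was thus 1.24-fold higher in posterior, a smaller ratio than those of PLXNA2 and PLXNA4. Set against that sum, neuropilins stood at 6.26 FPKM per FPKM of family A plexin in anterior and at 1.05 in posterior tissue. This is a ratio of RNA levels in bulk tissue, not of protein, and it has no error.

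Plexins of family B are receptors of class 4 semaphorins. PLXNB2 was at 11.1 FPKM in anterior tissue and 18.4 FPKM in posterior tissue (1.65-fold, log2 ratio 0.72, q = 0.00139 per the authors' deposited table). PLXNB1, known in mammals as the receptor of SEMA4D, was at 4.93 and 5.81 FPKM (log2 ratio 0.24, p = 0.619, q = 0.911 per the authors' deposited table). The PLXNB1 value is uncertain. Its listed locus overlaps those of 9 other rows, 8 of them tested and 0 called, so reads could be divided among them. The RefSeq gene table of assembly GRCg7b also lists PLXNB1 as another name of PLXNB3.

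PLXNC1, the receptor of SEMA7A, was the only plexin with a higher anterior value. It was at 34.4 FPKM in anterior tissue and 26.8 FPKM in posterior tissue, a log2 ratio of -0.36 that was not called (p = 0.0043, q = 0.0575 per the authors' deposited table). PLXND1, known in mouse as an endothelial receptor of SEMA3E, was at 10.5 and 13.2 FPKM, a log2 ratio of 0.34 that was not called (p = 0.0199, q = 0.176 per the authors' deposited table). The smallest log2 ratio of any called gene with a finite ratio was 0.363 in size. The ratios of PLXNA1, PLXNB1, PLXNC1 and PLXND1 all lay under it, so differences of their size were not called for any gene in this table. That minimum is taken over genes of all levels, so it is no detection limit for these plexins. The largest p of any called gene was 0.0035 per the authors' deposited table, not far below that of PLXNC1. The table holds no standard error from which an interval could be made.

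The plexin loci, as listed by the authors, lie on 3 chromosomes of galGal4 and may span more than the gene itself. PLXNA2 is on chromosome 26 from 2695759 to 2786683. Chromosome 1 carries PLXNA4 from 2226706 to 2647006, PLXNB2 from 20283172 to 20512301 and PLXNC1 from 44935663 to 45003163. Chromosome 12 carries PLXNA1 from 9887588 to 9971748, PLXNB1 from 11277818 to 11469823 and PLXND1 from 19511694 to 19575586. The loci of PLXNA1, PLXNA4 and PLXNB2 each overlap that of 1 other row, which is listed at 0 FPKM in both groups.

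**Figure D3:**
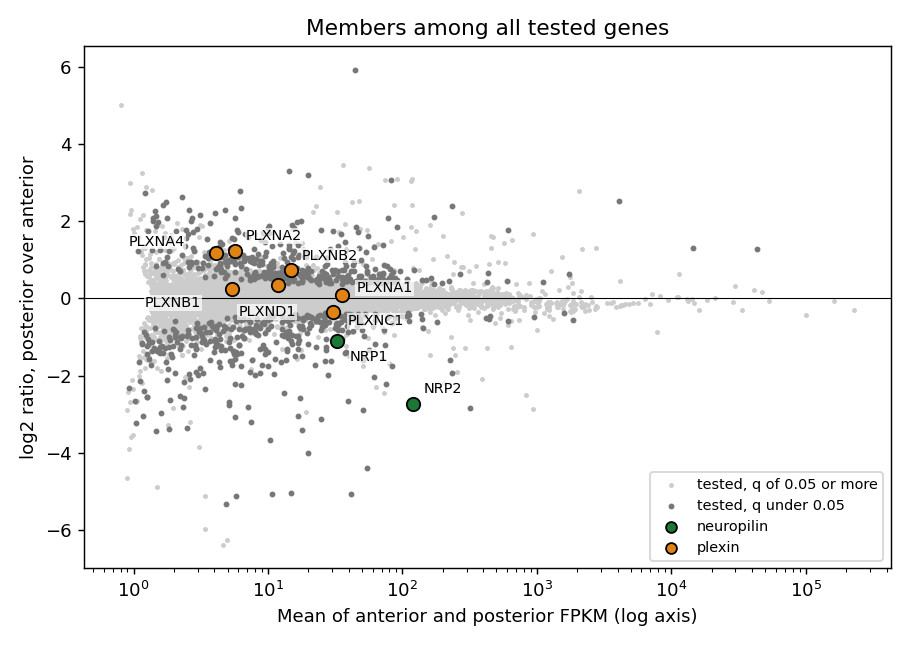
The log2 ratio of posterior over anterior FPKM (vertical) against the mean of both groups in FPKM (horizontal, log axis) for tested genes with a finite ratio, with neuropilins in green and plexins in orange. NRP2, at -2.73, ranks 68 of the 10529 tested rows toward anterior, and the 3 called plexins lie at 0.72 to 1.23. The ranked rows include 56 at 0 FPKM in 1 group, which have no finite ratio and are not plotted.

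The order of the members changed between the groups. In anterior tissue it ran from NRP2 (208 FPKM) through NRP1 (44.8), PLXNA1 (34.5), PLXNC1 (34.4), PLXNB2 (11.1), PLXND1 (10.5), PLXNB1 (4.93) and PLXNA2 (3.40) to PLXNA4 (2.49). In posterior tissue PLXNA1 came first (36.4 FPKM), before NRP2 (31.4), PLXNC1 (26.8) and NRP1 (21.0), and PLXNA2 (7.97) passed PLXNB1 (5.81). With no spread per group, it cannot be said which neighbours in either order differ. Neuropilins made up 71.4% of the summed FPKM of all 9 genes in anterior and 31.4% in posterior tissue.

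The secreted ligands of the neuropilins are the class 3 semaphorins. Of 6 tested, 3 were called higher in posterior and 1 in anterior, beside 3.57% and 3.5% of all tested rows, with a median log2 ratio of 0.58. Sema3F, the ligand of NRP2, was at 17.6 FPKM in anterior tissue and 146 FPKM in posterior tissue (log2 ratio 3.05, q = 0.00139 per the authors' deposited table). The level of NRP2 was 11.8 times that of Sema3F in anterior tissue and 0.215 times in posterior tissue. SEMA3A, the ligand of NRP1, was at 20.1 and 27.7 FPKM (log2 ratio 0.46, q = 0.0190 per the authors' deposited table), so that NRP1 stood at 2.23 times SEMA3A in anterior and 0.757 times in posterior tissue. These receptor to ligand ratios compare RNA of different genes in bulk tissue, with 1 value per group and no error. They are not ratios of protein, and ligand and receptor may lie in different cells.

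The other class 3 ligands went both ways. SEMA3G was at 4.44 and 8.95 FPKM (q = 0.00139) and SEMA3D at 2.73 and 1.35 FPKM (q = 0.0251) per the authors' deposited table. SEMA3C, which can use both neuropilins, was at 41.5 and 45.5 FPKM (log2 ratio 0.13, q = 0.720 per the authors' deposited table). SEMA3E, the ligand of PLXND1, was at 0.632 and 0.170 FPKM and was not tested by the authors.

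Among ligands that bind plexins directly, 1 of 9 tested was called higher in posterior and 2 in anterior, beside 3.57% and 3.5% of all tested rows, with a median log2 ratio of 0.06. SEMA7A was at 7.35 and 14.3 FPKM (log2 ratio 0.96, q = 0.00139 per the authors' deposited table), whereas its receptor PLXNC1 had a log2 ratio of -0.36 and was not called. SEMA5B was at 39.1 and 24.8 FPKM (q = 0.00139) and SEMA6B at 15.6 and 10.6 FPKM (q = 0.0244) per the authors' deposited table. The class 6 ligands SEMA6A, at 37.1 and 38.6 FPKM, and SEMA6D, at 5.07 and 4.54 FPKM, were not called (q = 0.924 and q = 0.774 per the authors' deposited table).

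**Figure D4:**
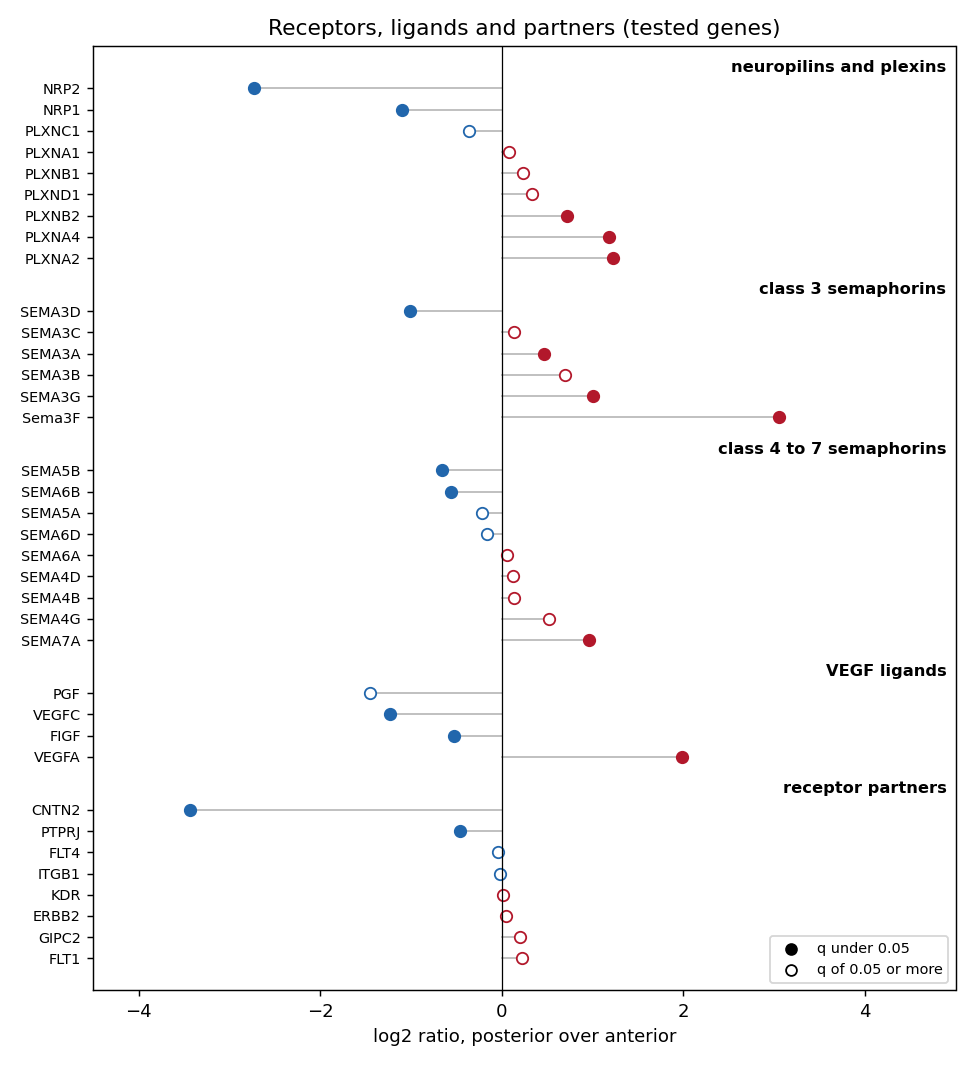
The log2 ratio of posterior over anterior FPKM for the 9 receptors and for tested semaphorins, vascular endothelial growth factors and receptor partners, grouped by role. Filled points have q under 0.05. NRP2 (-2.73) and its ligand Sema3F (3.05) lie on opposite sides of 0. CNTN2 (-3.44) lies farther toward anterior than NRP2, but its ratio rests on low levels, 2.71 FPKM in anterior and 0.250 FPKM in posterior tissue.

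Vascular endothelial growth factors, which neuropilins bind together with the receptor tyrosine kinases FLT1, KDR and FLT4, were called in 3 of 4 tested genes, beside 7.07% of all tested rows. VEGFA was at 6.60 FPKM in anterior tissue and 26.2 FPKM in posterior tissue (log2 ratio 1.99, q = 0.00139 per the authors' deposited table). VEGFC, a ligand of FLT4 that also binds NRP2, went the other way, at 6.23 and 2.66 FPKM (log2 ratio -1.23, q = 0.00139 per the authors' deposited table). FIGF, which encodes VEGFD, was at 166 and 116 FPKM (log2 ratio -0.52, q = 0.00139 per the authors' deposited table).

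Of 8 tested receptor partners, 0 were called higher in posterior and 2 in anterior (25.0%, beside 7.07% of all tested rows), with a median log2 ratio of 0.00015. KDR was at 7.37 and 7.46 FPKM (log2 ratio 0.02, q = 0.982 per the authors' deposited table). CNTN2, an axonal adhesion molecule that takes part in SEMA3A responses, was at 2.71 and 0.250 FPKM (log2 ratio -3.44, q = 0.00139 per the authors' deposited table). PTPRJ, a receptor phosphatase, was at 12.7 and 9.23 FPKM (q = 0.0309 per the authors' deposited table). NRCAM, an adhesion molecule that joins NRP2 in mouse, was at 1.08 and 0.126 FPKM, and c-met, the MET receptor that can pair with plexins of family B, at 0.538 and 0.325 FPKM, and neither was tested by the authors.

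Of 22 tested genes of the cytoplasmic response, 1 was called higher in posterior and 2 in anterior (13.6%, beside 7.07% of all tested rows), with a median log2 ratio of -0.02. FYN, a kinase recruited to plexins of family A, was at 48.1 and 23.2 FPKM (log2 ratio -1.05) and MICAL3, of the actin-oxidising MICAL family, at 10.2 and 6.24 FPKM (log2 ratio -0.71), both with q = 0.00139 per the authors' deposited table. FARP1, a FERM domain protein of the family that couples plexins of family A to small GTPases, was at 60.0 and 83.6 FPKM (log2 ratio 0.48, q = 0.0047 per the authors' deposited table). Of 3 tested genes that share domains with neuropilins, only DCBLD2 was called, at 47.1 and 62.2 FPKM (log2 ratio 0.40, q = 0.0450 per the authors' deposited table). Over the 6 lists of ligands, partners, effectors and relatives, 52 genes were tested, and 7 were called on the posterior side and 9 on the anterior side (30.8%), beside 7.07% of all tested rows. The 6 lists were chosen with earlier results of these data known. Their shares, pooled or list by list, are therefore descriptions only and no evidence of enrichment.

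The genes closest to NRP2 in ratio were also listed, among genes with a symbol and a mean of at least 10 FPKM. With only 2 groups, likeness means no more than a similar ratio. TNC, a matrix glycoprotein, was nearest at 67.8 and 10.7 FPKM (0.06 apart on the log2 scale). The next were the retinoic acid binding protein genes CRABP2 (561 and 78.8 FPKM, 0.10 apart) and CRABP-I (90.0 and 12.1 FPKM, 0.16 apart) and TMEM74 (29.8 and 4.95 FPKM, 0.14 apart), each with q = 0.00139 per the authors' deposited table. The small nucleolar RNA SNORD102 was about as close (1642 and 225 FPKM, 0.14 apart) but was not called (q = 0.665 per the authors' deposited table).

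Markers of the cell types in the dissected tissue differed too, and their part in the receptor results was not tested. Counts of calls in these lists stand beside 3.57% of all tested rows called higher in posterior and 3.5% in anterior. The marker lists too were chosen with earlier results of these data known, so these counts are descriptions only. In bulk tissue, fewer cells of a type and less RNA per cell cannot be told apart. TBX18, which marks anterior sclerotome, was at 32.5 and 3.10 FPKM, and UNCX, which marks posterior sclerotome, at 1.45 and 87.8 FPKM per the authors' deposited table. Of 9 tested neural crest and Schwann precursor markers, 6 were called higher in anterior and 0 in posterior (median log2 ratio -3.03, summed level 391 FPKM in anterior tissue and 173 FPKM in posterior). SOX10 was at 103 and 4.92 FPKM per the authors' deposited table, but NGFR, at 80.8 and 79.3, and ETS1, at 50.9 and 62.6, were not called. Of 11 endothelial markers, 6 were called higher in posterior and 0 in anterior (median log2 ratio 0.54, sums 166 and 212 FPKM), with PLVAP at 26.7 and 44.2 among those called and ERG at 34.0 and 38.4 and FLI1 at 38.2 and 34.8 FPKM among those not called. Of 9 tested dermomyotome and myotome markers, 6 were called higher in anterior and 0 in posterior (median log2 ratio -1.57, sums of all 10 matched markers 127 and 50.4 FPKM). Among those called were ACTC1 at 40.4 and 13.1 and MEF2C at 13.9 and 3.64 FPKM, while DES, at 36.9 and 21.3, was not called. Of 5 tested neuron markers, 2 were called higher in anterior and 1 in posterior (median log2 ratio -0.72, sums of all 10 matched markers 107 and 77.3 FPKM). TUBB3 was at 64.4 and 36.4, DCX at 9.38 and 21.2 and ELAVL4, not called, at 14.7 and 11.9 FPKM. By value, 4 of the 5 tested were higher in anterior and only DCX in posterior. ISL1, NEFM, NEFL, STMN2 and GAP43 were not tested by the authors. All of these had the higher value in anterior tissue, at most 1.45 FPKM. Of 8 sclerotome markers, 5 were called higher in posterior and 0 in anterior (median log2 ratio 0.54, sums 784 and 1064 FPKM), with PAX1 at 367 and 490, TCF15 at 39.8 and 104 and FOXC2, not called, at 185 and 179 FPKM. No matched marker of these lists was listed at 0 in either group.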

How the data were processed

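Per the labels' protocols, RNA of pooled chick anterior and posterior half-sclerotomes was poly(A)-selected, made into stranded libraries and read as single-end reads. Per the submitters' processing notes, the build was galGal4 and the tools included Cuffdiff, Cufflinks 2.2.1, TopHat2 2.1.0 and FastQC, with no roles stated. Per the file headers, the authors deposited 1 FPKM value per group and a p-value and q-value per gene. The sources used here do not give the counting options, the annotation or the scaling of libraries. The table holds no counts, so depth is unknown and no interval or detection limit could be given.

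Log2 ratios were computed here from FPKM with no pseudocount (Python 3.11.15, pandas 2.3.3, numpy 2.4.6). No test was refitted: calls rest on the authors' q. The deposited q was recomputed from p by the Benjamini-Hochberg method to within 5.27e-07, and this step was tested on simulated data. Not tested by the authors were 6579 rows, which were never called. Starts have 1 added, on the assumption that the table counts from 0. Of 134 list entries, 8 were matched through a synonym in a RefSeq table of GRCg7b, used for names only. The members and lists were chosen with earlier results of these data known. Named were all members, every called gene of each pathway list (up to 8), some ligands and partners fixed by name, the 3 most abundant markers of each list and the 5 genes nearest NRP2 in ratio. L1CAM, also fixed by name, matched no gene row by symbol or synonym, so no value is given for it. Alternatives changed the threshold, the pseudocount and the scaling.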

Additional observations from a re-analysis of the deposited data

How the results depend on the processing

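Ratios were recomputed with 0.1 or 1 FPKM added to both values, and after 3 scalings. The scalings were rescaling to TPM, centring on the median of tested rows and setting upper quartiles equal. All 9 members kept their direction, but this could not have come out otherwise. Adding the same amount to both values cannot change a direction, and the scalings shifted ratios by less than the smallest member ratio (0.08, PLXNA1). Only the sizes of the ratios could change. These sizes follow by arithmetic from the levels and the amount added or shifted, and they say nothing of replicate error. The ratio of NRP2 lay between -2.74 and -2.69 and that of NRP1 between -1.11 and -1.06 over these settings, and those of PLXNA2 and PLXNA4 between 1.03 and 1.26 and between 0.93 and 1.21. The 3 scalings shifted ratios by at most 0.03 on the log2 scale. The same 5 members were called with q under 0.01 (4.71% of tested rows) and with adjustment over rows with a mean of at least 1 FPKM. All 5 share the lowest p of all tested rows, with q = 0.00139 per the authors' deposited table. Their call at q under 0.01 was thus fixed in advance. In the adjustment over fewer rows they keep the lowest p, so they are called if any row is. Neither setting is a further check. For that adjustment the share called among all rows was not computed, so its count has no background beside it. PLXNC1 joined the 5 members with q under 0.1, and PLXNC1 and PLXND1 did with unadjusted p under 0.05. PLXNB2 left them with a minimum difference of 2-fold. That minimum also reduced the calls among the 52 tested genes of the 6 pathway lists, since fewer genes pass a second criterion. Calls fell from 7 to 3 in posterior and from 9 to 4 in anterior. Over all tested rows, the shares fell from 3.57% to 1.25% in posterior and from 3.5% to 1.68% in anterior. No paired analysis was possible because the table holds 1 value per group, and for the same reason no library could be left out. How far the 3 libraries of a group agreed for any receptor is therefore not shown, and the unknown depth limits what can be said of the low levels of PLXNA2, PLXNA4 and PLXNB1.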
